A study of Mus musculus with 12 samples.

Results

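The endoplasmic reticulum (ER) is the compartment in which secreted and membrane proteins are folded, and 32 genes of its folding machinery and its stress response are described here in mouse PYMT cells. The genes were chosen by name: ER chaperones, disulfide isomerases, the sensors and factors of the ATF6, XBP1 and ATF4 arms, the CREB3L factors, and parts of ER-associated degradation and of the translocon. They are 32 of the genes in a table of 54347 rows, in which 33 rows carry 1 of the names. Ddit3 has a second row, listed at or near 0 in every library and not tested. All 32 genes passed the filter on low counts, among 15319 genes tested. PYMT cells take their name from the polyoma virus middle T oncogene of a mouse mammary tumour model. The labels call them a cell line without saying whether it is a clone.

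The cells were grown in matrigel, a basement membrane gel, in 4 groups of 3 libraries. NT cells received no ligand, TGFB2 cells received TGFB2, BMP4 cells received BMP4, and BMP4-TGFB2 cells received both. The ligand dose was 5 ng/mL over 3 days, and after a medium change all groups were collected 2 days later. Both ligands belong to the transforming growth factor beta family of signalling proteins, and the study asked about the programs by which they induce dormancy. Poly(A) RNA was sequenced, and library totals ran from 28543100 to 42167700 counts. The replicates are labelled biological with no word on their separation (culture, day or passage), and a p-value here covers no more than the spread among these libraries.

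When unfolded proteins build up in the ER, sensors in its membrane start the unfolded protein response. ATF6 is cut to release a transcription factor, IRE1 (gene Ern1) splices the messenger RNA of Xbp1, and PERK (gene Eif2ak3) slows translation while raising translation of ATF4. ATF6 and XBP1 raise chaperones and degradation genes, while ATF4, which amino acid shortage and other stresses also raise, turns on amino acid and feedback genes. Milk-producing mammary cells and matrix-producing mesenchymal cells both depend on this machinery, since they secrete large amounts of protein.

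Some promoters of these genes carry known elements for the 2 branches. They are printed because 2 sets among the 32 genes had medians on different sides of the NT level with TGFB2. These were the 9 chaperones and the 7 genes of the PERK and ATF4 arm. Of them, 1 of the 9 and 0 of the 7 passed in edgeR at an adjusted p under 0.05. A link between the elements and the changes was not tested. RefSeq promoter windows of GRCm38.p6, from 250 bases before to 50 bases after a gene start, were present for 28 of the 32 genes, and 32851 windows were searched in all, on both strands. The ER stress response element, searched as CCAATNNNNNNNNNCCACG, occurred in 7 of the 28 windows (25.0%), against 0.119% of all windows. NF-Y binds its CCAAT end and ATF6 its CCACG end. Its second form, ATTGG and CCACG with 1 base between them, occurred in 2 of the 28 (7.14%), against 0.0365% of all. The C/EBP-ATF composite element that ATF4 binds, searched as TGATGNAA, occurred in 4 of the 28 (14.3%), against 3.97% of all. TGACGTGG, the core of the element bound by XBP1, was found in 0 of the 28 windows and in 0.676% of all, which says only that these letters are not in those windows. A match is a description of letters, not of binding. Since the genes were chosen by name and the elements are known ones of this response, the higher shares are not a result of these data. The matches follow with 5 flanking bases on each side, and capitals mark the fixed letters of the first element.
Hspa5, chr2:34772020-34772048, plus strand: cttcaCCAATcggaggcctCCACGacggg
Hsp90b1, chr10:86705633-86705661, minus strand: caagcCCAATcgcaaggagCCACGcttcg
Hsp90b1, chr10:86705528-86705556, plus strand: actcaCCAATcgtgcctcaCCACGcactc
Creld2, chr15:88819515-88819543, minus strand: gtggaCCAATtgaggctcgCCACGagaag
Dnajc3, chr14:118937822-118937850, plus strand: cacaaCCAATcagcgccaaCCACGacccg
Calr, chr8:84847070-84847098, plus strand: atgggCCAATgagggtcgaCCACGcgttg
Canx, chr11:50325795-50325823, minus strand: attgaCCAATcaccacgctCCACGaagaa
Pdia6, chr12:17266486-17266514, plus strand: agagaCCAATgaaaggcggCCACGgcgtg
All 7 of these genes encode chaperones, their helpers or disulfide isomerases. The second form lay in 1 further chaperone partner, Dnajb11, and in the degradation gene Herpud1.
Dnajb11, chr16:22857847-22857867, plus strand: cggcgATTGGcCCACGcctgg
Herpud1, chr8:94386372-94386392, plus strand: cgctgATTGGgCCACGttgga
The composite element lay in 3 genes of the ATF4 arm and, again, in Herpud1; capitals mark its whole length.
Asns, chr6:7693220-7693237, minus strand: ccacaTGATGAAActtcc
Chac1, chr2:119351044-119351061, minus strand: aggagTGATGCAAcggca
Trib3, chr2:152344034-152344051, plus strand: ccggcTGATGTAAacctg
Herpud1, chr8:94386312-94386329, minus strand: cgggcTGATGCAAcccgc
Herpud1 was the single gene of the 28 with an element of each kind. A stretch of 172 bases of its upstream sequence, a part of the window searched, is shown on the plus strand. Capitals mark the composite element (here as its reverse complement) and the second form of the stress element.
Herpud1, chr8:94386257-94386428, plus strand: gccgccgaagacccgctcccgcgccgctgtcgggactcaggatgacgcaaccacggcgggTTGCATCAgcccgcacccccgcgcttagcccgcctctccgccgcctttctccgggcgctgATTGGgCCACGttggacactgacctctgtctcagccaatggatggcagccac

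The libraries labelled replicate 1 stood apart from the others in these genes, in every group. In 11 of the 32 genes replicate 1 was the highest library of all 4 groups: the 7 genes of the PERK and ATF4 arm (Eif2ak3, Atf4, Ddit3, Trib3, Chac1, Asns and Ppp1r15a) together with Dnajb9, Atf6, Ern1 and Herpud1. In 18 others it was the highest in 0 of 4 groups. The same count was not made over all genes tested, so no share of all genes stands beside it. Standing apart was not particular to these genes. By chi-square per degree of freedom over all genes tested, replicates 2 and 3 were the closest pair of each group. In NT it was 29.2 for that pair, and 118 and 131 for the pairs with replicate 1. The mean log2 level of the 7 genes of the PERK and ATF4 arm, relative to the NT mean, was 1.07 in replicate 1 of NT and -0.52 and -0.55 in replicates 2 and 3. In the TGFB2 group it was 1.70, 0.37 and 0.40, in BMP4 1.11, -0.09 and -0.41, and in BMP4-TGFB2 1.69, 0.22 and 0.33. Chaperones went the other way. The mean of 9 chaperones and Hsp70 partners was -0.26, 0.15 and 0.11 in the NT libraries, -0.51, -0.20 and -0.12 with TGFB2, -0.24, -0.07 and -0.07 with BMP4, and -0.54, -0.26 and -0.18 with both. Over all 15319 genes, 12 of 12 libraries correlated best, outside their own group, with a library of the same number. What the replicate number stands for is not given in the labels, and its part in the results was not tested. Results are therefore given with all libraries and, where a call depends on it, without the 4 libraries numbered 1. Those libraries were singled out from the values of these same genes. A call made without them is therefore a description and not a separate test.

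**Figure D1:**
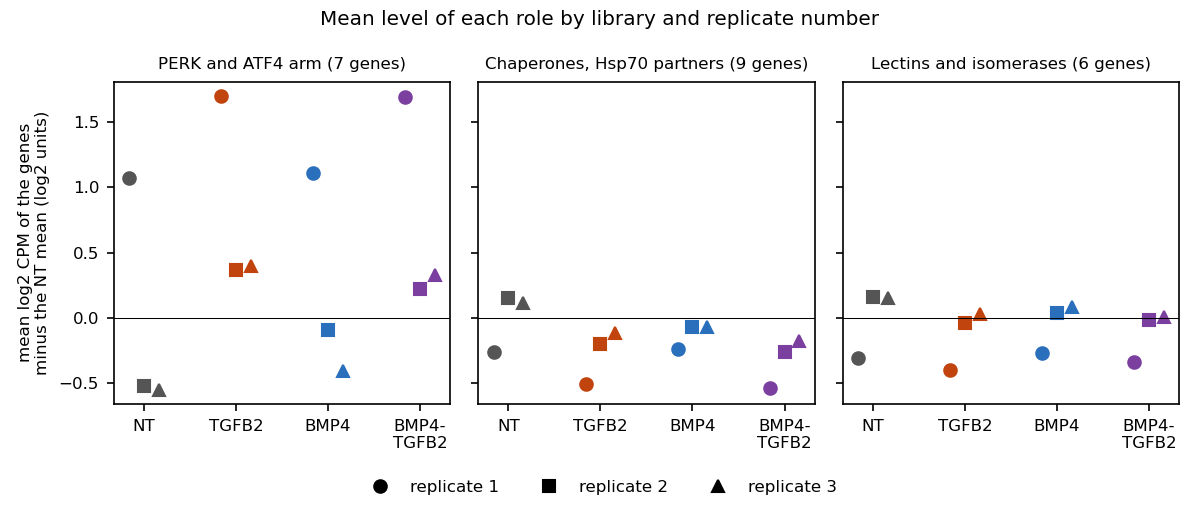
Mean log2 CPM (counts scaled to a common library total) of the genes of 3 roles, relative to the mean of the 3 NT libraries, by group on the x axis; each point is 1 library and its shape the replicate number. In the PERK and ATF4 arm replicate 1 is the highest point of every group (1.07 in NT, 1.70 with TGFB2), while in the chaperones and the lectins it is the lowest.

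The identity of the cells was checked with marker lists. Epithelial genes (Epcam, Krt8, Krt18, Cdh1 and Cldn3) summed to between 3450 and 4210 TPM (the authors' unit, scaled for transcript length and to a common total) in the 12 libraries. Plasma cells are secretory cells rich in XBP1, and their 4 markers summed to 0.159 to 1.75 TPM. Leukocyte markers summed to 2.55 to 15.4 TPM, fibroblast markers to 0.616 to 9.63 TPM and endothelial markers to 0.735 to 1.49 TPM. Csf1r, a leukocyte marker, rose with TGFB2 (log2 fold change 3.65), with BMP4 (2.62) and with both (3.99) from 0.0529 to 0.196 TPM in NT. The defining leukocyte marker Ptprc stayed between 0.0549 and 0.317 TPM. Of 4 tested of 5 fibroblast markers, 2 rose with TGFB2, 0 passed with BMP4 and 1 rose with both. Among all genes 22.4%, 5.45% and 26.2% passed (11.3%, 3.21% and 13.3% higher). Dcn and Lum did not pass in these comparisons and were lowest in replicate 2 of each group. Dcn had 109, 15 and 176 counts in NT and 116, 22 and 191 with TGFB2. Pdgfra rose with TGFB2 (2.37) and with both (2.69), and when TGFB2 was added to BMP4 (2.08), at 0.0896 to 2.13 TPM over all libraries. Pdgfrb rose with TGFB2 (2.99), at 0.0773 to 1.85 TPM. Of the 5 epithelial markers, Cdh1 fell with TGFB2 (-0.29), with both (-0.50) and when TGFB2 was added to BMP4 (-0.42). The part of these markers in the results was not tested.

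The ER genes were abundant. Their summed TPM was 7490 ± 762 in NT, 6780 ± 578 with TGFB2, 6990 ± 613 with BMP4 and 6880 ± 449 with both (SD, n = 3 libraries per group), and the ranges of the 4 groups overlapped. The isomerase subunit P4hb had the highest mean of the 32, 1750 TPM, followed by Calr (803 TPM), Hspa5 (641 TPM) and Pdia3 (612 TPM). Creb3l2 (6.73 TPM), Creb3l1 (7.86 TPM), Ern1 (8.37 TPM), Atf6 (13.4 TPM) and Eif2ak3 (14.6 TPM) had the lowest means, and 3 of these 5 encode the stress sensors. In bulk RNA, a change in the share of cells that express a gene and a change in RNA per cell cannot be told apart.

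With TGFB2, 6 of the 32 genes passed at an adjusted p under 0.05, against 22.4% of all genes tested (11.3% higher and 11.1% lower). Ern1 and Creb3l2 rose, and Xbp1, Creld2, Herpud1 and Sel1l fell. Adjusted p-values here and below are Benjamini-Hochberg values over all genes from the quasi-likelihood test of edgeR. The median log2 fold change of the 32 was -0.08, and that of all genes 0.01. In 6 genes the 3 TGFB2 libraries did not overlap the 3 NT libraries (2 higher and 4 lower), against 38.5% of all genes (19.4% higher and 19.2% lower). With BMP4, 2 of the 32 passed, against 5.45% of all genes (3.21% higher and 2.25% lower). Xbp1 and Creb3l1 fell, and the median of the 32 was -0.13 against 0 for all genes. The BMP4 and NT libraries did not overlap in these 2 genes, against 23.8% of all genes (12.1% lower). With both ligands, 6 of the 32 passed, against 26.2% of all genes (13.3% higher and 12.9% lower): Ern1 and Creb3l2 rose, and Xbp1, Creld2, Sdf2l1 and Herpud1 fell, with a median of -0.07 against 0.01. There 3 genes were higher and 3 lower without overlap, against 41.3% of all genes (20.8% higher and 20.5% lower). The 3 comparisons share the NT libraries, so their values stand side by side and are not independent.

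**Figure D2:**
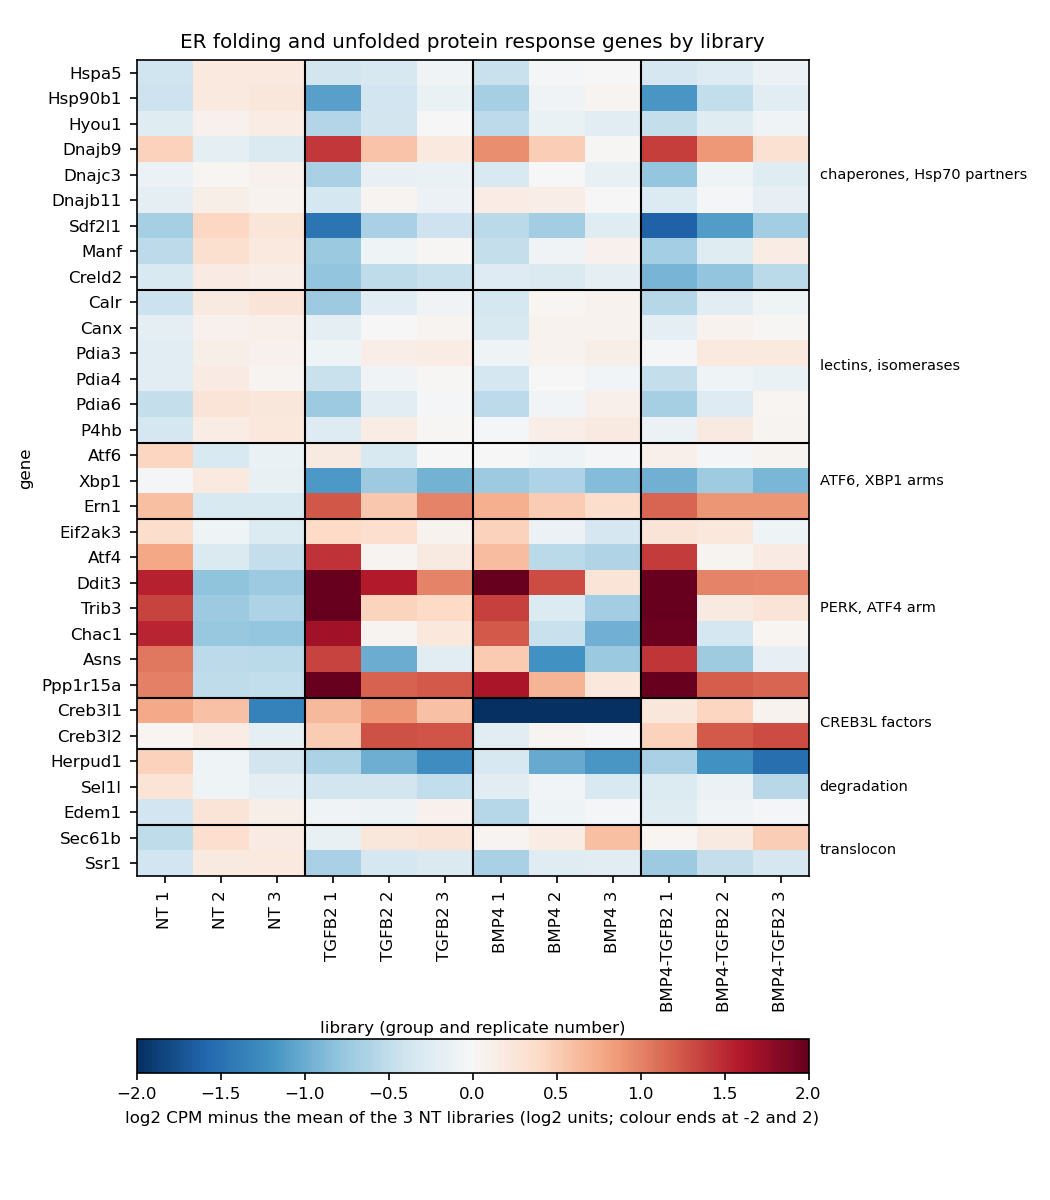
log2 CPM of the 32 genes (rows, by role) in the 12 libraries (columns) minus the mean of the 3 NT libraries, with colours ending at -2 and 2. The row of Xbp1 is lower in all 9 treated libraries than in NT, Creb3l1 is lowest in the 3 BMP4 libraries, and the genes of the PERK and ATF4 arm are highest in replicate 1 of each group.

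The share of passing ER genes was 18.8% with TGFB2, 6.25% with BMP4 and 18.8% with both ligands. How it compared with the share of all genes depended on the libraries. Without the libraries numbered 1, 15 of 32 passed with TGFB2 against 26.4% of all genes, and 13 of 32 with both against 30.7%. Without NT replicate 1 alone, 9 of 32 passed with TGFB2, among 3665 of 15319 genes.

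Xbp1 fell in all 3 treated groups. It encodes the transcription factor that IRE1 activates by splicing, and gene-level values do not separate the spliced from the unspliced message. Its level was 248, 294 and 230 CPM in NT replicates 1, 2 and 3, 116, 154 and 133 CPM with TGFB2, 155, 166 and 141 CPM with BMP4, and 132, 156 and 136 CPM with both. The lowest NT library was above the highest treated library. The log2 fold change against NT was -0.96 ± 0.14 with TGFB2 (SE; adjusted p = 0.00057), -0.73 ± 0.14 with BMP4 (adjusted p = 0.0116) and -0.86 ± 0.14 with both (adjusted p = 0.000912). Leaving out NT replicate 2 ended the BMP4 call (adjusted p = 0.0572). Without the libraries numbered 1 it passed in all 3, at -0.91, -0.78 and -0.85. The difference between both ligands and one alone was 0.11 ± 0.14 against TGFB2 and -0.13 ± 0.14 against BMP4, and neither passed. The interaction, the log2 difference between the joint change and the sum of the single changes, was 0.83 ± 0.19 and missed the threshold (adjusted p = 0.15). It passed with the replicate number as a block (0.83 ± 0.12, adjusted p = 0.012) and in DESeq2 (adjusted p = 0.00881).

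Ern1, which encodes the sensor IRE1, rose in both groups with TGFB2. Its level was 33.0, 17.5 and 17.6 CPM in NT, 51.3, 31.4 and 43.0 CPM with TGFB2, 35.6, 30.7 and 27.7 CPM with BMP4, and 48.3, 40.1 and 40.1 CPM with both. NT replicate 1 overlapped the TGFB2 and BMP4 libraries, but not those with both ligands. On the log2 scale the change was 0.87 ± 0.25 with TGFB2 (adjusted p = 0.0279), 0.93 ± 0.25 with both (adjusted p = 0.0183) and 0.49 ± 0.25 with BMP4 (adjusted p = 0.328). The TGFB2 call was lost in 6 of 15 alternatives (adjusted p up to 0.114). These left out NT replicate 2, NT replicate 3, TGFB2 replicate 1 or TGFB2 replicate 3, or used limma on log2(TPM + 1) or the compared groups alone. The call with both was lost without NT replicate 2 or 3 or BMP4-TGFB2 replicate 1 (adjusted p up to 0.079). When the libraries numbered 1 were left out, the values were 1.05 (adjusted p = 0.00434) and 1.19 (adjusted p = 0.00209). The RNA of the sensor that splices Xbp1 thus rose in the groups with TGFB2, in which Xbp1 itself fell. Atf6, the sensor of the other arm, lay between -0.07 and 0.02 in the 3 comparisons and did not pass.

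Of the 9 chaperones and Hsp70 partners among the 32 genes, 1 passed with TGFB2 (lower), 0 with BMP4 and 2 with both (lower). The median log2 fold changes were -0.31, -0.16 and -0.26, and 8, 7 and 8 of the 9 had a negative value. Hspa5 encodes BiP, the main Hsp70 of the ER, and its level was 736, 1110 and 1110 CPM in NT, 752, 774 and 920 CPM with TGFB2, 708, 946 and 969 CPM with BMP4, and 764, 812 and 889 CPM with both. NT replicate 1 lay among the treated libraries, while NT replicates 2 and 3 lay above all 9 of them. Its log2 fold change was -0.30 ± 0.18 with TGFB2 (adjusted p = 0.275), -0.16 ± 0.18 with BMP4 and -0.26 ± 0.18 with both. Without NT replicate 1, or without all 4 libraries numbered 1, the TGFB2 value passed, at -0.43 in the second case (adjusted p = 0.0447).

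Creld2 fell in both groups with TGFB2. It encodes a disulfide isomerase of the ER that is induced by stress, and carries the stress element printed above. Its level was 47.5, 65.6 and 64.6 CPM in NT, 34.1, 41.4 and 43.2 CPM with TGFB2, 49.0, 48.0 and 51.5 CPM with BMP4, and 30.8, 33.9 and 40.4 CPM with both. Both groups with TGFB2 lay below every NT and every BMP4 library. The log2 fold change was -0.60 ± 0.16 with TGFB2 (adjusted p = 0.0191) and -0.75 ± 0.16 with both (adjusted p = 0.00559). The first call was lost without NT replicate 2, NT replicate 3 or TGFB2 replicate 1 (adjusted p up to 0.0819). With BMP4 the value was -0.24 ± 0.16 and did not pass (adjusted p = 0.473).

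Sdf2l1, a partner of the Hsp70 cochaperones, fell with both ligands. Its level was 34.4, 72.7 and 64.7 CPM in NT, 19.9, 34.9 and 40.9 CPM with TGFB2, 37.7, 33.8 and 46.0 CPM with BMP4, and 17.8, 25.1 and 33.6 CPM with both. Replicate 1 was lowest in NT, in TGFB2 and in BMP4-TGFB2. With both the log2 fold change was -1.16 ± 0.34 (adjusted p = 0.0254), and with TGFB2 it was -0.87 ± 0.33 (adjusted p = 0.0841). The call with both was lost without NT replicate 2 or 3 or BMP4-TGFB2 replicate 1 or 2 (adjusted p up to 0.105). Without the libraries numbered 1 both values passed, at -0.89 (adjusted p = 0.0196) and -1.22 (adjusted p = 0.0051), and so did TGFB2 without NT replicate 1.

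The neurotrophic factor Manf, a chaperone cofactor that leaves the cell under ER stress, did not pass. It was at 110, 198 and 182 CPM in NT, 94.8, 149 and 160 CPM with TGFB2, 114, 151 and 168 CPM with BMP4, and 98.8, 134 and 175 CPM with both. Replicate 1 was the lowest library of each group, and the groups overlapped. The log2 fold changes were -0.31, -0.16 and -0.26. Manf shares exon bases with Dcaf1 and Rbm15b, at 27.4% and 58.7% of its mean CPM, and reads were unstranded. Among the other 5 helpers, Hsp90b1, the ER Hsp90, had log2 fold changes of -0.54, -0.20 and -0.60. It passed without the libraries numbered 1 with TGFB2 (-0.50, adjusted p = 0.0421) and with both (-0.56, adjusted p = 0.0249). Hyou1, a large Hsp70 relative (-0.33, -0.27 and -0.25), Dnajc3, an Hsp70 cochaperone (-0.31, -0.13 and -0.33), and Dnajb11, another (-0.16, 0.10 and -0.15), did not pass. Dnajb9, an Hsp70 cochaperone that represses IRE1, had positive values (0.77, 0.52 and 0.89; adjusted p = 0.156, 0.502 and 0.0935). It passed with both ligands without the libraries numbered 1, at 0.84 (adjusted p = 0.0271). With the replicate number as a block in edgeR, Hsp90b1, Hyou1 and Dnajc3 fell and Dnajb9 rose with TGFB2 (adjusted p up to 0.0291). The same held with both ligands (adjusted p up to 0.0464). With that block 37.8% of all genes passed with TGFB2 and 41.4% with both.

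Lectin chaperones and disulfide isomerases had log2 fold changes between -0.36 and 0.12 against NT. By edgeR, 0 of 6 passed with TGFB2, with BMP4 and with both, at an unadjusted p under 0.05 also 0. Log2 fold changes ran from -0.36 to 0.04 with TGFB2, from -0.15 to 0.09 with BMP4 and from -0.30 to 0.12 with both. Calr and Canx encode the lectins that hold glycoproteins during folding. Calr had -0.36 ± 0.23, -0.08 ± 0.22 and -0.30 ± 0.22, and Canx -0.07 ± 0.14, -0.03 ± 0.14 and -0.02 ± 0.14. Calr passed with TGFB2 without the libraries numbered 1 (-0.39, adjusted p = 0.0467). With the replicate number as a block in edgeR, Calr and Pdia6 fell with TGFB2 (adjusted p up to 0.015). With both, Calr, Pdia6 and Pdia4 fell under the block (adjusted p up to 0.0364). That block passed 37.8% of all genes with TGFB2 and 41.4% with both. Of the isomerases, which form and shuffle disulfide bonds, Pdia3 (0.04, 0.05 and 0.12) and P4hb (-0.07, 0.09 and 0.03) were near 0. Pdia4 (-0.18, -0.11 and -0.22) and Pdia6 (-0.35, -0.15 and -0.29) were below it. P4hb is also a subunit of the collagen prolyl hydroxylase.

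**Figure D3:**
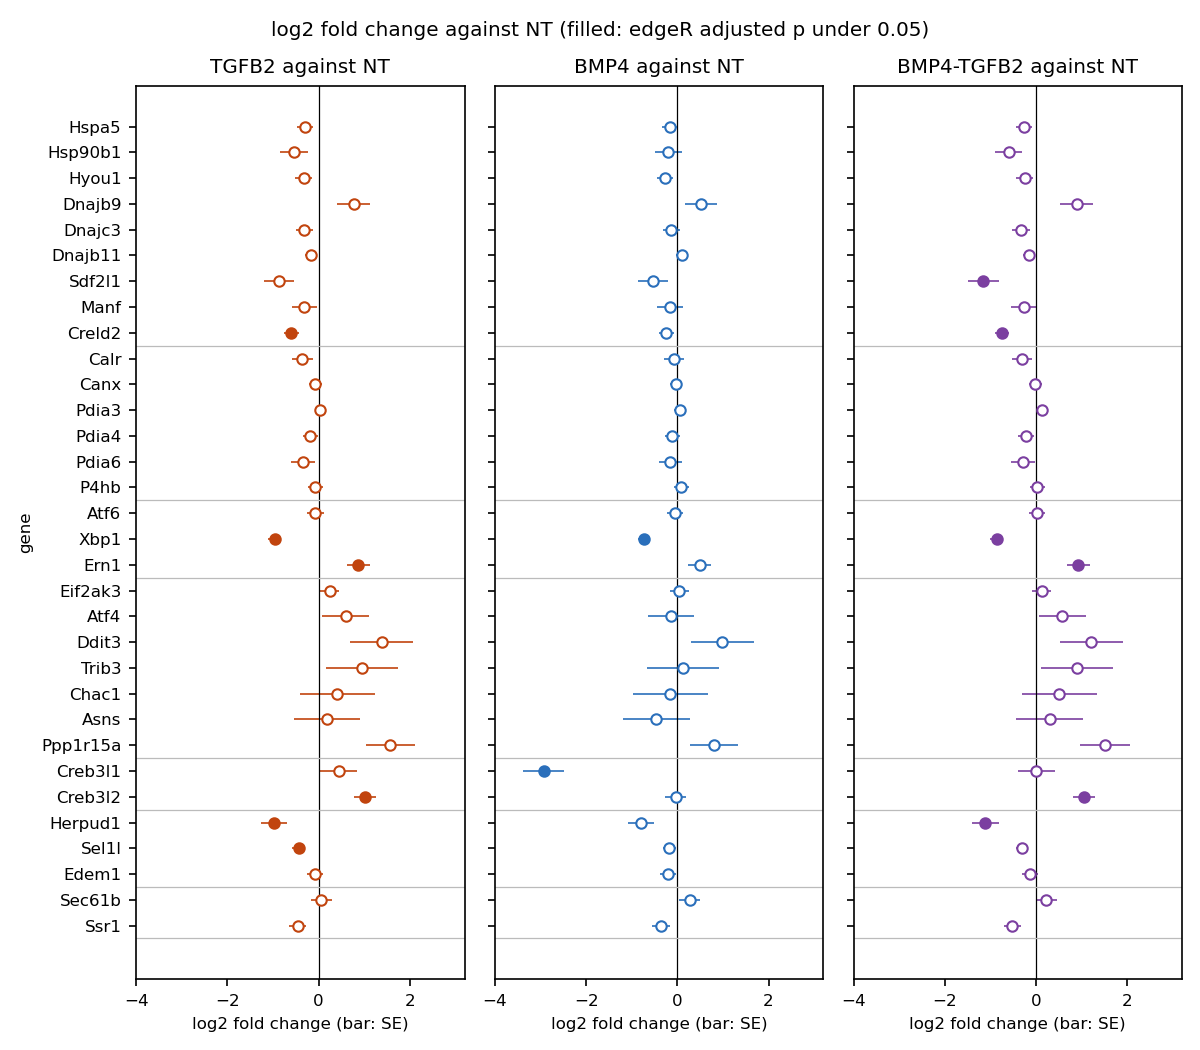
log2 fold change (x axis; bar, SE) of the 32 genes against NT with TGFB2, BMP4 and both, in order of role; filled points had an edgeR adjusted p under 0.05. Points of the lectins and isomerases (Calr to P4hb) lie between -0.36 and 0.12, and the bars of Ddit3, Trib3, Chac1 and Asns are the widest.

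In the PERK and ATF4 arm, 0 of the 7 genes passed with TGFB2, BMP4 or both, though all 7 had positive values with TGFB2 (median 0.59) and with both (median 0.58). With BMP4 the median was 0.04. At an unadjusted p under 0.05, Ppp1r15a was the single gene of the arm with TGFB2 and with both. DESeq2 passed Ppp1r15a with TGFB2 and with both. With the replicate number as a block in edgeR, Atf4, Ddit3, Trib3, Chac1 and Ppp1r15a rose with TGFB2 (adjusted p up to 0.0189). They also rose with both (adjusted p up to 0.0285), while Eif2ak3 and Asns passed in neither. With that block 37.8% of all genes passed with TGFB2 and 41.4% with both. The spread between replicate numbers was wide here. The highest library exceeded the lowest of its own group by 2.33 to 2.62 times for Atf4 and by 3.54 to 4.19 times for Trib3.

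Atf4, the transcription factor of the arm, was at 407, 195 and 172 CPM in NT, 650, 248 and 270 CPM with TGFB2, 366, 164 and 157 CPM with BMP4, and 628, 249 and 269 CPM with both. Replicate 1 of each group was above replicates 2 and 3 of every group. Its log2 fold change was 0.59 ± 0.51 with TGFB2 (adjusted p = 0.454), -0.14 ± 0.51 with BMP4 and 0.58 ± 0.51 with both (adjusted p = 0.442). When the libraries numbered 1 were left out, it passed with TGFB2, at 0.46 (adjusted p = 0.0269), and with both, at 0.49 (adjusted p = 0.0178).

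Ddit3 encodes CHOP, a factor induced late in the response and linked to cell death. Its level was 43.0, 8.49 and 8.98 CPM in NT, 83.5, 44.5 and 29.6 CPM with TGFB2, 62.3, 36.6 and 17.8 CPM with BMP4, and 78.8, 29.6 and 29.3 CPM with both. NT replicates 2 and 3 were below all 9 treated libraries, and NT replicate 1 was within them. On the log2 scale the change was 1.38 ± 0.69 with TGFB2 (adjusted p = 0.181), 0.98 ± 0.69 with BMP4 (adjusted p = 0.505) and 1.21 ± 0.69 with both (adjusted p = 0.223). Without the libraries numbered 1 it passed in all 3, at 2.05 (adjusted p = 0.00486), 1.63 (adjusted p = 0.0381) and 1.75 (adjusted p = 0.0066). An exon of Mars shares 68 bases with Ddit3, and Mars averaged 139 CPM against 39.4 CPM of Ddit3. Since reads were unstranded, reads from that stretch cannot be assigned by strand.

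Ppp1r15a encodes GADD34, which restores translation after PERK has slowed it. It was at 41.1, 14.4 and 14.6 CPM in NT, 114, 46.7 and 48.0 CPM with TGFB2, 63.3, 32.8 and 23.8 CPM with BMP4, and 103, 47.6 and 46.1 CPM with both. Every library of the TGFB2 and BMP4-TGFB2 groups was above every NT library. The log2 fold change was 1.57 ± 0.54 with TGFB2 (adjusted p = 0.0584) and 1.51 ± 0.54 with both (adjusted p = 0.0607). When the libraries numbered 1 were left out, it passed in all 3 comparisons, at 1.67 (adjusted p = 0.000607), 0.96 with BMP4 (adjusted p = 0.0191) and 1.69 (adjusted p = 0.00045). With TGFB2 and with both it also passed without NT replicate 1 alone.

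The other targets of ATF4 spread as widely. Trib3, a pseudokinase that feeds back on ATF4, ran from 27.9 to 117 CPM in NT and from 60.4 to 214 CPM with TGFB2, with a log2 fold change of 0.95 ± 0.79 (adjusted p = 0.43). Without the libraries numbered 1 it passed with TGFB2, at 1.05 (adjusted p = 0.00232), and with both, at 0.90 (adjusted p = 0.00321). Chac1, a glutathione-degrading enzyme, had 0.41 ± 0.82 with TGFB2 and passed there without the libraries numbered 1, at 0.86 (adjusted p = 0.0239). Asns, asparagine synthetase, did not pass with or without them (0.18 ± 0.73 with TGFB2, -0.46 ± 0.73 with BMP4 and 0.30 ± 0.73 with both). The kinase gene Eif2ak3 had 0.24, 0.04 and 0.12.

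Leaving out the 4 libraries numbered 1 moved the counts of all 32 genes. With TGFB2 15 passed (7 higher and 8 lower), against 26.4% of all genes (13.1% higher and 13.3% lower). With BMP4 5 passed (2 higher and 3 lower), against 4.41% (2.65% and 1.76%). With both 13 passed (7 higher and 6 lower), against 30.7% (14.9% and 15.8%). Of the 7 genes of the PERK and ATF4 arm, 5 were among the 7 higher with TGFB2, and 4 among the 7 higher with both. With 2 libraries per group these counts rest on little replication, and the libraries left out were picked from the same values.

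The 2 CREB3L factors, relatives of ATF6 that are released from the ER membrane by cleavage, passed in different comparisons with NT. Creb3l1, known for its role in collagen secretion, was at 20.9, 18.5 and 4.85 CPM in NT, 19.4, 22.8 and 18.5 CPM with TGFB2, 2.31, 1.27 and 2.10 CPM with BMP4, and 14.5, 16.6 and 13 CPM with both. All 3 BMP4 libraries lay below every other library, while NT replicate 3 was 4.3 times lower than the highest NT library. On the log2 scale the change with BMP4 was -2.93 ± 0.45 (adjusted p = 0.00428), and it passed in all 15 alternatives tried (adjusted p up to 0.0467). With TGFB2 it was 0.44 ± 0.41 and with both 0.01 ± 0.41, and neither passed. Creb3l1 (ENSMUSG00000027230.9) spans chr2:91982328-92024502 on the minus strand of GRCm38.

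Creb3l2, a second regulator of secretory genes, rose with TGFB2 whether or not BMP4 was present. Its level was 21.3, 22.9 and 18.2 CPM in NT, 29.4, 49.8 and 49.3 CPM with TGFB2, 17.7, 21.4 and 20.7 CPM with BMP4, and 28.6, 48.2 and 51.0 CPM with both. All 6 libraries with TGFB2 were above all 6 without it, and replicate 1 was the lowest of both groups that received it. The log2 fold change was 1.02 ± 0.24 with TGFB2 (adjusted p = 0.0111) and 1.05 ± 0.24 with both (adjusted p = 0.00842), and each passed in all 15 alternatives tried. With BMP4 it was -0.04 ± 0.24 (adjusted p = 0.964).

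**Figure D4:**
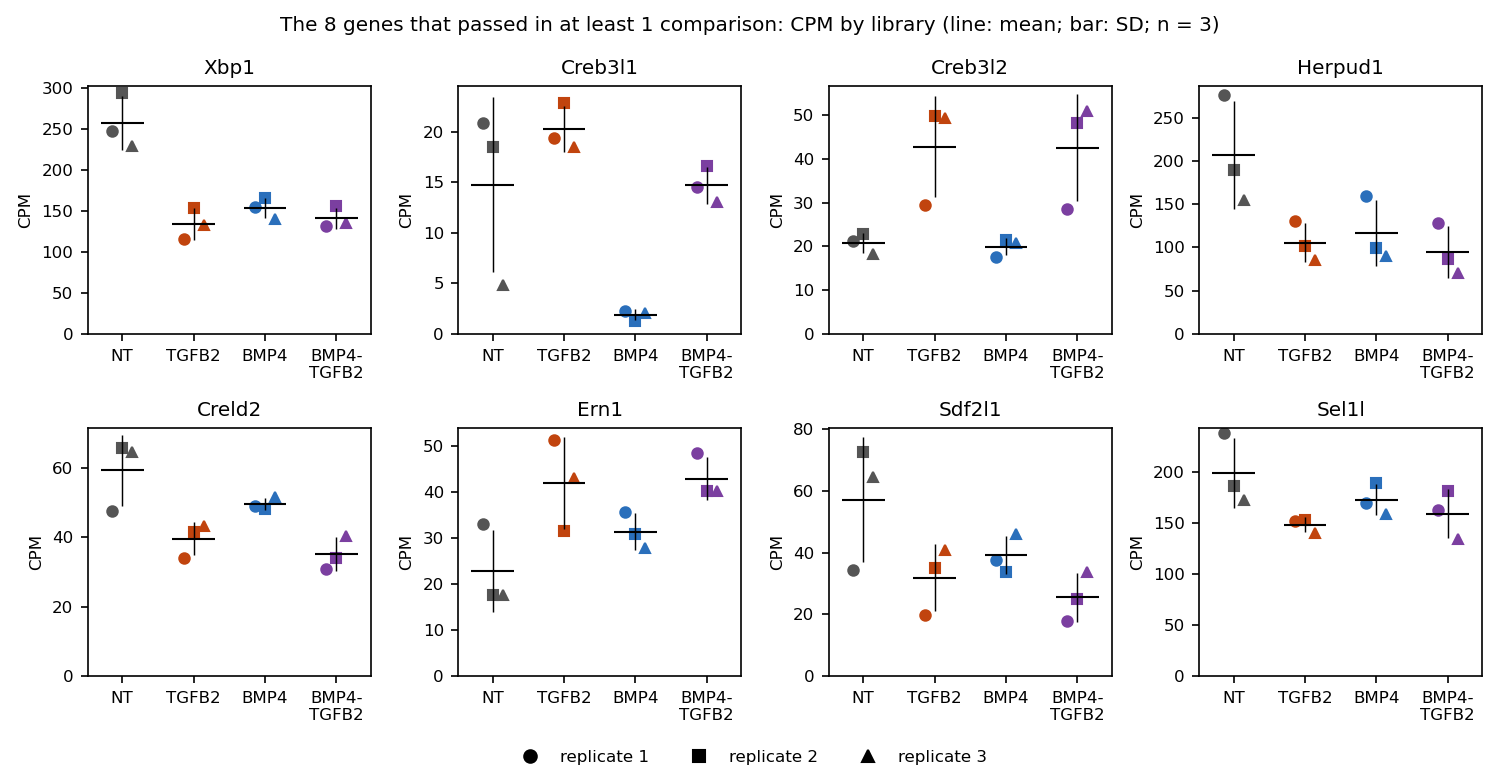
CPM (y axes from 0) of the 8 genes that passed in at least 1 comparison, by group; points are libraries, shapes are replicate numbers, the line is the mean and the bar the SD of 3 libraries. Xbp1 is highest in NT, Creb3l1 lies between 1.27 and 2.31 CPM in the BMP4 libraries, and Creb3l2 is above 28 CPM in each library with TGFB2.

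Of the 3 degradation genes, Herpud1 and Sel1l fell with TGFB2. Herpud1 encodes a membrane scaffold of the ubiquitin ligase complex that clears misfolded proteins, and its level was 276, 189 and 155 CPM in NT, 130, 102 and 85.2 CPM with TGFB2, 160, 99.6 and 89.9 CPM with BMP4, and 128, 86.5 and 70.2 CPM with both. Replicate 1 was the highest of each group, and both groups with TGFB2 lay below all NT libraries. On the log2 scale the change was -0.98 ± 0.29 with TGFB2 (adjusted p = 0.0335), -0.80 ± 0.29 with BMP4 (adjusted p = 0.153) and -1.11 ± 0.29 with both (adjusted p = 0.0172). The TGFB2 call was lost when NT replicate 1, NT replicate 2, TGFB2 replicate 2 or TGFB2 replicate 3 was left out (adjusted p up to 0.107). The call with both was lost without NT replicate 1 or BMP4-TGFB2 replicate 2 or 3 (adjusted p up to 0.0599). Without all 4 libraries numbered 1 it passed in all 3 comparisons, at -0.92, -0.86 and -1.14.

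Herpud1 is the gene whose promoter window holds both kinds of element. Sel1l, the adaptor of the same ligase complex, was at 238, 186 and 173 CPM in NT and 152, 153 and 140 CPM with TGFB2, without overlap. Its log2 fold change was -0.44 ± 0.14 (adjusted p = 0.0447). That call was lost in 10 of 15 alternatives (adjusted p up to 0.157). It was lost without NT replicate 1 or 2 or any of the 3 TGFB2 replicates, and without all libraries numbered 1. It was also lost with no filter on low counts, with limma on log2(TPM + 1) or log2(TPM + 0.1), and with the compared groups alone. With BMP4 (-0.18) and with both (-0.31) it did not pass. Edem1, a lectin that sends misfolded glycoproteins to degradation, had -0.08, -0.21 and -0.13. In the translocon, the channel of entry into the ER, Sec61b had 0.06, 0.27 and 0.22. Ssr1, a translocon-associated subunit, had -0.46, -0.36 and -0.52 and passed without the libraries numbered 1 with TGFB2 (-0.54, adjusted p = 0.00941) and with both (-0.60, adjusted p = 0.00536).

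Same-numbered libraries deviated together in BMP4 against NT, so the replicate number was also fitted as a block. With the block 8 of the 32 genes passed with BMP4, against 15.4% of all genes (8.6% higher and 6.78% lower). Xbp1, Creb3l1, Herpud1 (-0.81, adjusted p = 0.000336) and Ssr1 (-0.35, adjusted p = 0.0236) were lower. Dnajb9 (0.51, adjusted p = 0.0172), Ern1 (0.53, adjusted p = 0.0412), Ddit3 (1.19, adjusted p = 0.012) and Ppp1r15a (0.86, adjusted p = 0.00115) were higher. Ppp1r15a was higher than the same-numbered NT library by 0.62, 1.19 and 0.70 log2 units, and Ddit3 by 0.53, 2.11 and 0.99. Atf4 was lower in all 3 pairs, by -0.15, -0.25 and -0.13, and did not pass.

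With BMP4 added to TGFB2, 0 of the 32 genes passed in edgeR, against 0% of all genes. At an unadjusted p under 0.05 there were 0 of the 32 and 516 of all genes. DESeq2 passed 0 of the 32 and 51 of all genes, and limma voom 0 and 0. Log2 differences of the 32 ran from -0.43 to 0.16 around a median of 0.03. The lowest was that of Creb3l1 (-0.43 ± 0.41), whose 3 BMP4-TGFB2 libraries lay below the 3 TGFB2 libraries. It was 1 gene without overlap, against 6.77% of all genes (3.24% higher and 3.53% lower). With the replicate block 0 of the 32 passed, against 0.0392% of all genes.

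Adding TGFB2 to BMP4 raised both CREB3L factors. They were 2 of the 32 genes that passed, against 9.22% of all genes (4.24% higher and 4.98% lower), and the median of the 32 was -0.02. Libraries did not overlap in 3 higher genes (these and Ern1) and 2 lower ones (Creld2 and Dnajb11), against 28.3% of all genes (13.9% and 14.4%). Creb3l1 rose by 2.93 ± 0.45 (adjusted p = 0.00266), which brought it from 1.89 ± 0.547 CPM to 14.7 ± 1.79 CPM (SD, n = 3), next to 14.7 ± 8.63 CPM in NT. Creb3l2 rose by 1.09 ± 0.24 (adjusted p = 0.0171). The Creb3l2 call was lost without BMP4 replicate 1 or 2 or BMP4-TGFB2 replicate 2 or 3, and with limma on either TPM scale (adjusted p up to 0.065). Each of these left 1 gene. Without all libraries numbered 1 there were 5 higher genes, against 9.03% of all genes (4.17% higher). The interaction of Creb3l1 was 2.49 ± 0.60 and missed the threshold (adjusted p = 0.173), though it passed without NT replicate 3, at 2.91 (adjusted p = 0.028). For the interaction 0 of the 32 passed in edgeR, against 0.157% of all genes. With the replicate block 3 of the 32 passed, against 1.83% of all genes (0.588% higher and 1.24% lower): Xbp1 and Herpud1 (0.66, adjusted p = 0.0271) were higher and Ppp1r15a (-0.89, adjusted p = 0.0277) lower. At an unadjusted p under 0.05 Xbp1 and Creb3l1 were 2 of the 32, among 1290 of all genes, and DESeq2 passed both, limma voom neither.

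Here too same-numbered libraries deviated together, and with the block 11 of the 32 passed, against 22.7% of all genes (10.7% higher and 12% lower). The ATF4 arm made up 5 of the 7 higher genes. Atf4 was 0.71 higher (adjusted p = 0.000562), Trib3 0.74 (adjusted p = 0.000711), Ppp1r15a 0.72 (adjusted p = 0.00167), Asns 0.65 (adjusted p = 0.0132) and Chac1 0.60 (adjusted p = 0.0361), beside the CREB3L factors. Atf4 was higher by 0.78, 0.60 and 0.78 log2 units in the 3 same-numbered pairs. The 4 lower genes were Hsp90b1 (-0.41, adjusted p = 0.00672), Creld2 (-0.52, adjusted p = 0.00774), Herpud1 (-0.30, adjusted p = 0.0252) and Sdf2l1 (-0.69, adjusted p = 0.0334). The other 2 genes of the arm, Ddit3 (0.34, -0.31 and 0.72 in the 3 pairs) and Eif2ak3 (-0.20, 0.32 and 0.26), did not pass.

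Other genes of the same pathways were counted from lists, to be read against the 22.4% of all genes that passed with TGFB2, 5.45% with BMP4 and 26.2% with both. Of 24 further genes of the translocon, signal peptidase and oligosaccharyltransferase, 5 fell with TGFB2 (20.8%), 0 passed with BMP4, and 1 rose and 7 fell with both (33.3%). They include Ssr2, a partner of Ssr1 (-0.56 with TGFB2), and Rpn1 and Rpn2, subunits of the enzyme that attaches glycans (-0.46 and -0.47). Of 26 other folding enzymes, 2 rose and 5 fell with TGFB2 (26.9%). Serpinh1, the collagen chaperone HSP47, rose by 1.05 ± 0.28 (adjusted p = 0.0206) and the prolyl isomerase Fkbp7 by 2.15 ± 0.26 (adjusted p = 0.000213). The prolyl isomerase Fkbp2 fell (-0.64 ± 0.13). With BMP4 0 of the 26 passed. With both 3 rose and 5 fell (30.8%), among them the oxidase Ero1l (-1.12 ± 0.21, adjusted p = 0.00279).

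Of 22 other degradation genes, 5 rose and 0 fell with TGFB2 (22.7%, against 11.3% higher and 11.1% lower among all genes). Derl3, a channel-forming derlin known as an XBP1 target, rose with TGFB2 (2.28 ± 0.60, adjusted p = 0.0183), with BMP4 (2.56 ± 0.60, adjusted p = 0.0312) and with both (3.14 ± 0.61, adjusted p = 0.00301). Derl3 counts were low, at 12, 7 and 8 in NT and 24, 64 and 40 with TGFB2. They were 45, 64 and 42 with BMP4, and 40, 108 and 57 with both. Xbp1 fell in each of these comparisons, and a link between the changes was not tested. Ubxn4 (0.44), Herpud2 (0.64) and Ube2j1 (0.38) also rose with TGFB2, and with both ligands 5 rose and 0 fell (22.7%). Of 29 other ATF4 targets, 1 rose and 4 fell with TGFB2 (17.2%). Ddit4, an inhibitor of growth signalling, rose (2.10 ± 0.36, adjusted p = 0.00191), while the serine synthesis genes Psat1 (-1.54) and Phgdh (-1.06) and the cysteine synthesis gene Cth (-1.38) fell. Cth also fell with BMP4 (-1.30) and with both (-2.05). With both ligands 1 rose and 5 fell (20.7%).

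Of 24 genes of COPII vesicles, which carry cargo to the Golgi, 1 rose and 4 fell with TGFB2 (20.8%), 0 rose and 1 fell with BMP4 (4.17%), and 3 rose and 4 fell with both (29.2%). The cargo receptor gene Mia3, whose product loads collagen into vesicles, fell with TGFB2 (-0.64 ± 0.11, adjusted p = 0.00156), with BMP4 (-0.49 ± 0.11, adjusted p = 0.0238) and with both (-0.55 ± 0.11, adjusted p = 0.00316). The retrieval receptor Kdelr3 rose with TGFB2 (2.02 ± 0.51). Of 11 tested of 13 other sensors, proteases and factors of the response, 1 rose and 2 fell with TGFB2 (27.3%): Wfs1, an ER calcium regulator (0.65), and Eif2ak2, the kinase PKR (-1.68), with Tmbim6 (-0.55). In each of these 6 lists the median log2 fold change with TGFB2 lay between -0.19 and 0.10, against 0.01 for all genes.

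Proteins made in the ER were counted as cargo. Of 11 milk and secretory proteins, 6 passed the filter on low counts, and all 6 fell with TGFB2 and with both, 4 with BMP4. Among all genes 11.1%, 12.9% and 2.25% fell in these comparisons. The untested Csn1s2a, Csn2, Wap, Lalba and Glycam1 had at most 32 counts in any NT library. The highest counts in NT were those of Ltf (235001 to 511087) and Lcn2 (139041 to 269284). Their summed level was 15500 to 28300 TPM in NT, 3350 to 6800 TPM with TGFB2, 4610 to 8130 TPM with BMP4 and 1620 to 3700 TPM with both. Of 20 matrix genes, 10 rose with TGFB2, 5 with BMP4 and 13 with both, and 0 fell, against 11.3%, 3.21% and 13.3% higher among all genes. They summed to 629 to 1090 TPM in NT, 1700 to 2890 TPM with TGFB2, 1650 to 2030 TPM with BMP4 and 1600 to 2730 TPM with both. The treated libraries did not overlap NT in either sum, whereas the summed TPM of the 32 ER genes overlapped in all 4 groups. Such sums weigh the most abundant genes most. Fn1 had 5848 to 174992 counts over the 12 libraries, and Col1a1 46 to 298. With TGFB2, 18 of the 20 matrix genes had positive and 2 negative log2 fold changes. The lists were chosen with earlier results of these data known, and a link between cargo and ER genes was not tested.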

How the data were processed

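Poly(A) RNA of 12 libraries (4 groups of 3) was prepared with a NEBNext Ultra II kit, per the labels' protocols. The submitters' processing notes name bcl2fastq 2.17, STAR 2.7.5b, Salmon 1.2.1 and GRCm38.p6, without settings. Deposited by the authors were estimated counts per gene, of which 82.9% were whole; rounding them here changed the total by 0.000361%. The authors also deposited TPM, used here for levels between genes and in 2 alternatives. Deposited fields give unstranded libraries and 1 sequencing batch.

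Tests used edgeR 4.0.16 in R 4.3.3: quasi-likelihood, all 12 libraries in 1 model by group, TMM scaling (0.971 to 1.03), filterByExpr (minimum count 10; 15319 of 54347 rows, 99.9% of counts), adjusted over all genes at 0.05. The common biological coefficient of variation was 0.299. There were 6 comparisons. Alternatives used limma 3.58.1 and DESeq2 1.42.0, other filters, scalings and groups of libraries. The procedure was tested on simulated data. No pair of replicates agreed within sampling noise (lowest chi-square per degree of freedom 29.2). Precision is limited by 3 libraries per group.

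The members and gene lists were chosen with earlier results of these data known. Values in every library are given for 8 genes chosen by name (Hspa5, Xbp1, Atf4, Ddit3, Creb3l1, Creb3l2, Herpud1 and Manf) and for the members with the smallest adjusted p in each comparison; of other lists up to 4 genes with the smallest p are named, with a few more where a count is spelled out. Libraries with the same number deviated together from group means, with correlations above 0.1 for all 3 numbers in BMP4 against NT (0.16 to 0.44), BMP4-TGFB2 against TGFB2 (0.23 to 0.50) and BMP4-TGFB2 against BMP4 (0.15 to 0.35). There, and in the interaction made of the first 2 of these, the numbers were taken as pairs in the replicate block only. That choice came from the data and not from the labels. The main calls of all comparisons were made by group, without pairs. Number 2 lay under 0.1 in TGFB2 against NT (0.08 to 0.30) and BMP4-TGFB2 against NT (0.03 to 0.23). By this rule the numbers were not taken as pairs there, and the block is a description. The cutoff of 0.1 was a choice made here, and it decides where block calls are read as paired. Many calls in these comparisons differ with and without the block. Positions are from GENCODE M21, where 31 of 33 rows were found with the same version, and promoters from RefSeq.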

Additional observations from a re-analysis of the deposited data

How the results depend on the processing

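The 16 calls of single ER genes were recomputed under 15 alternatives each, 240 in all: 200 kept the call, 40 lost it and 0 changed sign. The calls kept under all 15 were those of Xbp1 and Creb3l2 with TGFB2 and with both, Creb3l1 with BMP4 and with TGFB2 added to BMP4, and Creld2 with both. Among values that did not pass, 93 of 2800 passed under an alternative. For TGFB2 against NT the replicate block passed 5798 genes (37.8%) and 19 ER genes, and omission of the libraries numbered 1 left 15 ER genes. For BMP4 against NT, DESeq2 passed 1562 genes, a fit of the compared groups alone 527 and the block 2356, with 8 ER genes under the block and 5 without the libraries numbered 1. For BMP4-TGFB2 against NT the block passed 6342 genes (41.4%) and 20 ER genes, and 13 ER genes passed without the libraries numbered 1. For BMP4-TGFB2 against TGFB2, DESeq2 passed 51 genes, no filter 23, limma on log2(TPM + 1) 1, on log2(TPM + 0.1) 2 and the block 6. For BMP4-TGFB2 against BMP4, DESeq2 passed 2219 genes, the compared groups alone 915 and the block 3476. There, 1 ER gene passed with either TPM scale, 11 with the block and 5 without the libraries numbered 1. For the interaction, DESeq2 passed 295 genes, voom 12, no filter 173, log2(TPM + 0.1) 13, the block 280 and omission of the libraries numbered 1 left 6; ER genes numbered 2 in DESeq2 (Xbp1 and Creb3l1), 1 with no filter (Creb3l1) and 3 with the block (Xbp1 and Herpud1 higher, Ppp1r15a lower). The cause was not tested.

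Leaving out 1 library at a time gave 2052 to 3665 genes and 2 to 9 ER genes for TGFB2 against NT, 293 to 756 and 1 to 3 for BMP4 against NT, 2551 to 4273 and 4 to 8 for BMP4-TGFB2 against NT, 0 to 1 and 0 to 0 for BMP4-TGFB2 against TGFB2, 666 to 1329 and 1 to 2 for BMP4-TGFB2 against BMP4, and 0 to 27 and 0 to 1 for the interaction. A group left with 2 libraries takes its spread from the others. In TGFB2 against NT and BMP4-TGFB2 against NT the libraries share only a number by the rule used, so the block counts there are a description; each of 12 libraries correlated best with a library of its own number in another group.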
